A study of Mus musculus with 8 samples.

Results

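The butyrophilin-like and Skint genes encode relatives of butyrophilin, a membrane protein of the immunoglobulin superfamily. The family members described here were Btnl9, Btnl2, Btnl10, Btn1a1, Btn2a2, Skint1, Skint3, Skint5, Skint7 and Skint9, taken by symbol from rows of the array table that carry exactly 1 gene symbol. Of these 10 genes, 8 had such a row and each had 1 row, out of 19938 genes in all; Skint1 and Skint5 had no row under their symbol in the annotation used here and were not analysed. The members were selected on family membership and on their measured values on these same arrays, namely the differences between labelled-null and control arrays and the spread between arrays, so the differences between groups are given below as descriptions and not as tests. The arrays carried RNA from the full-thickness skin of E17.5 mouse embryos on a mixed C57BL6/SV129 background. There were 4 control arrays, from embryos wildtype for PPARgamma, and 4 arrays from embryos labelled PpargΔ/Δ or PPARgamma null, called labelled null here; the labels give no treatment, no litter or sex, and nothing on how or in which cells the gene was deleted. The labels do not state that replicates came from separate embryos, so the spread given is that between these 8 RNAs.

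Butyrophilins and their relatives have immunoglobulin-like domains outside the cell and act at the border between tissue cells and T cells. Skint genes are expressed in thymic epithelium and in keratinocytes, and Skint1 is needed for the selection of the gamma-delta T cells that settle in mouse epidermis as dendritic epidermal T cells. Btn1a1, the founding member, is a protein of the milk fat globule membrane. Btnl2 and Btn2a2 restrain T cell activation in experimental systems. The Skint genes lie side by side in 1 cluster of the mouse genome, and the mouse carries many copies of similar sequence.

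The sequences upstream of 5 genes are shown because Skint3, Skint9, Skint4 and Skint10 were all low on the same 2 arrays and Btnl9 differed between the groups. They are the 250 bases before an annotated RefSeq start in build GRCm38.p6, 5′ to 3′ on the strand of the gene. Of the 10 members, 9 had an entry in the RefSeq promoter table. Skint3 lies at chr4:112231995-112232244, plus strand, and Skint4, at the second of its 2 annotated starts, at chr4:112081220-112081469, plus strand. Skint9 lies at chr4:112433986-112434235, minus strand, Skint10 at chr4:112774862-112775111, minus strand and Btnl9 at chr11:49187090-49187339, minus strand. Capitals mark AGTACTTGAGTAAT in Skint3 and Skint4, CTAATTTGAATTATGCAGT in Skint9 and Skint10, and TTTATA, the reverse complement of TATAAA, in Btnl9.
Skint3: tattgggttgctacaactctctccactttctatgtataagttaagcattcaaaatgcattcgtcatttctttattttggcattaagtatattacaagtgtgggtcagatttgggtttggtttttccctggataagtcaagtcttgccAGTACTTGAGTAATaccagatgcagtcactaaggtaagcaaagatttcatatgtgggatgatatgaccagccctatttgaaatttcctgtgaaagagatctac
Skint4, second start: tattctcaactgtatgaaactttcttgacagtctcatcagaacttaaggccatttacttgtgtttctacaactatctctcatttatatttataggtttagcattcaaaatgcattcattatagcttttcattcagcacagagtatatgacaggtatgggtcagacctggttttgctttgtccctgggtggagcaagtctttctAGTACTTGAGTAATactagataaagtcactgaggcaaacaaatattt
Skint9: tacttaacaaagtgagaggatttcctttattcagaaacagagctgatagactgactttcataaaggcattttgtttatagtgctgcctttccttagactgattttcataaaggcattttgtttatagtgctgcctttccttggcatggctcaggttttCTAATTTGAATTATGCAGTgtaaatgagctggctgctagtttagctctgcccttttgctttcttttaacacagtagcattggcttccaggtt
Skint10: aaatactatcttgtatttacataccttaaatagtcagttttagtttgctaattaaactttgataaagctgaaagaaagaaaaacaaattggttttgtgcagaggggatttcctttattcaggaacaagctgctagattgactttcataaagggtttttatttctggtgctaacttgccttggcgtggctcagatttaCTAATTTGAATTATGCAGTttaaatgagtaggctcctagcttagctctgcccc
Btnl9: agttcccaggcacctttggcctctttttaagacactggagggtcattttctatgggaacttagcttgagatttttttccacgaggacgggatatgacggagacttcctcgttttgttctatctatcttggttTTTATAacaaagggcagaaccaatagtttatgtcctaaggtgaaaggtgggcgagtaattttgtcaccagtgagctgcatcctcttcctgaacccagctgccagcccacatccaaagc
The 14-base stretch AGTACTTGAGTAAT stood on either strand in 5 of 32851 upstream sequences of the same length (0.0152%), namely those of Skint1, Skint3, Skint4, Skint5 and Skint6; it was picked after these sequences had been read. The 19-base stretch CTAATTTGAATTATGCAGT is the longest that Skint9 and Skint10 share, and it stood in 2 of the 32851 (0.00609%). It was picked from this pair, so its rarity is no test. Skint11 shares a stretch of 18 bases with Skint9 and a stretch of 20 bases with Skint10. Over aligned bases, with gaps left out, the upstream sequences of Skint3 and the second start of Skint4 were 77.8% identical and those of Skint9 and Skint10 75.4%. The second start of Skint4 and Skint9 stood at 73.5%, Skint3 and Skint9 at 66.3%, and Skint3 and the first start of Skint4 at 60.5%. By the same measure Btnl9, on another chromosome, ranged from 55.8% with Skint9 to 68.0% with Skint8. Figures inside that range therefore show no particular likeness. The closest pairs were Skint10 with Skint11 and Skint5 with Skint6, at 88.8% each. A part of upstream sequence in the array values was not tested. TATAAA on either strand stood in 12.4% of all upstream sequences and in 8 of the 17 of the members and the other Skint genes, those of Btnl9, Skint1, Skint2, Skint4, Skint7, Skint8, Skint9 and Skint11; capitals mark it for Btnl9 alone. The spaced repeat AGGTCANAGGTCA, the consensus of elements bound by PPAR and RXR pairs, stood on either strand in 0.0335% of all upstream sequences and in none of the 17 of the members and the other Skint genes. These matches describe letters in the windows and do not show binding. The exact spaced repeat is so rare that it would hardly be met in 17 sequences, so its absence says nothing about binding.

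Pparg was not lower on the labelled-null arrays. It read 8.79, 8.88, 9.04 and 9.06 on control arrays 1 to 4 and 9.14, 9.19, 9.19 and 8.98 on labelled-null arrays 1 to 4 (RMA log2 values, as all values below), so the groups overlapped. The deleted stretch of Pparg is not named in the labels, and probes outside it would check nothing, so every direction is given for the arrays as labelled. Of 15174 genes tested with limma, 18 passed an adjusted p of 0.05 (0.119%), 17 of them lower (0.112%) and 1 higher (0.00659%) on the labelled-null arrays, and 548 (3.61%) had an unadjusted p under 0.05. Array medians lay between 6.93 and 6.96, and the skin keratins Krt10 and Krt14 and the dermal collagens Col1a1 and Col3a1 were each brighter than 98.4% or more of all 35556 transcript clusters, the rows of the table. The number of arrays, 4 per group, limits the precision.

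Btnl9, a butyrophilin-like protein whose transcript is found in capillary endothelium, was lower on every labelled-null array than on every control array. It read 7.90, 7.85, 7.77 and 7.85 on control arrays 1 to 4 and 7.40, 7.30, 7.32 and 7.15 on labelled-null arrays 1 to 4. The lowest control value thus lay above the highest labelled-null value. The means were 7.84 ± 0.06 and 7.29 ± 0.11 (SD, n = 4 each), a difference of -0.55 (SE 0.062), or 1.46-fold. The transcript cluster (10385542) was brighter than 59.6% of all clusters. Btnl9 was the 1 member among the 5 tested that passed the limma threshold, beside 0.119% of all genes tested, and the 1 of 8 measured members whose groups did not overlap, beside 2.45% of all genes tested (1.67% lower and 0.784% higher on the labelled-null arrays). Because these values chose it, nothing is read from either count. The difference lay between -0.59 and -0.50 when 1 array was left out, and it no longer passed the threshold without control array 2, 3 or 4 or labelled-null array 2.

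**Figure D1:**
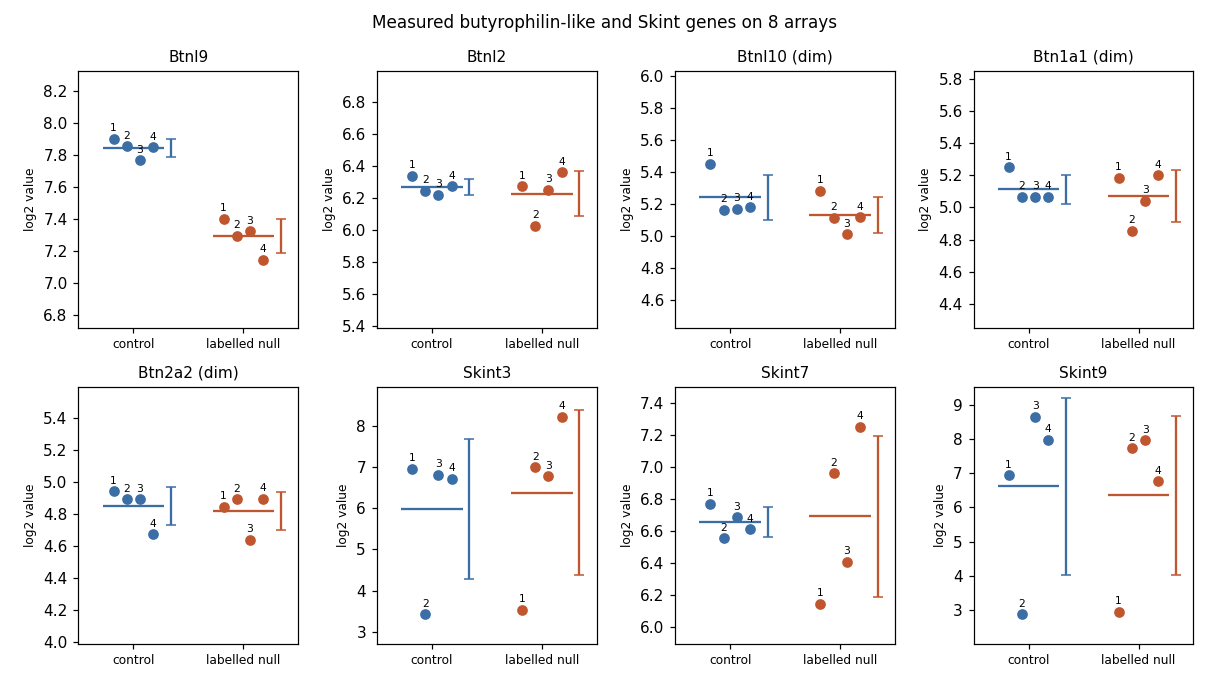
RMA log2 values (vertical axis) of the 8 measured members on the control and labelled-null arrays; numbers are the replicate numbers, horizontal lines the group means and bars ± 1 SD (n = 4), and "dim" marks members under the brightness filter. Btnl9 separates the groups, while Skint3 and Skint9 each have 1 very low array in either group; vertical ranges differ between panels.

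Among the marker lists, the mean of the adipocyte list separated the groups as Btnl9 did, and that of the blood endothelial list did not. Of 16 adipocyte genes 12 were tested and 10 of these lay below control, with a median difference of -0.39 beside -0.00 for all genes tested; Fabp4 (-1.13), Cd36 (-0.92), Aqp7 (-0.85) and Lpl, which handle fatty acids and glycerol, passed the limma threshold, and 8 of the 12 had an unadjusted p under 0.05. The other tested adipocyte genes did not pass. Plin1 (-0.88), Car3 (-0.40), Retn (-0.38), Cidec (-0.18), Lipe (-0.14) and Pnpla2 (-0.08) lay below control. Pparg (0.18) and Dgat2 (0.03) lay above it. The adipocyte hormone gene Adipoq was dim and not tested, at 5.02 to 5.69 on control and 4.39 to 4.90 on labelled-null arrays. The mean of the 12 genes ran from 8.51 to 8.75 on control arrays and from 8.14 to 8.30 on labelled-null arrays. Of 14 blood endothelial genes, 7 lay below and 7 above control, with a median difference of 0.00, and by limma 0 passed the threshold and 1 had an unadjusted p under 0.05. Their mean ran from 8.86 to 9.01 on control and from 8.89 to 8.99 on labelled-null arrays, and the largest differences were those of the sialomucin gene Emcn (0.20), Vwf (0.17), the von Willebrand factor gene, and Egfl7 (0.08). The junction gene Cdh5 and the adhesion gene Pecam1 were brighter than 93.9% and 87.4% of all clusters. No separate list of capillary genes was drawn up, so a change in capillaries alone was not examined. The part of the adipocyte genes in the Btnl9 difference was not tested, and in whole skin fewer cells of a type and less RNA per cell cannot be told apart.

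**Figure D2:**
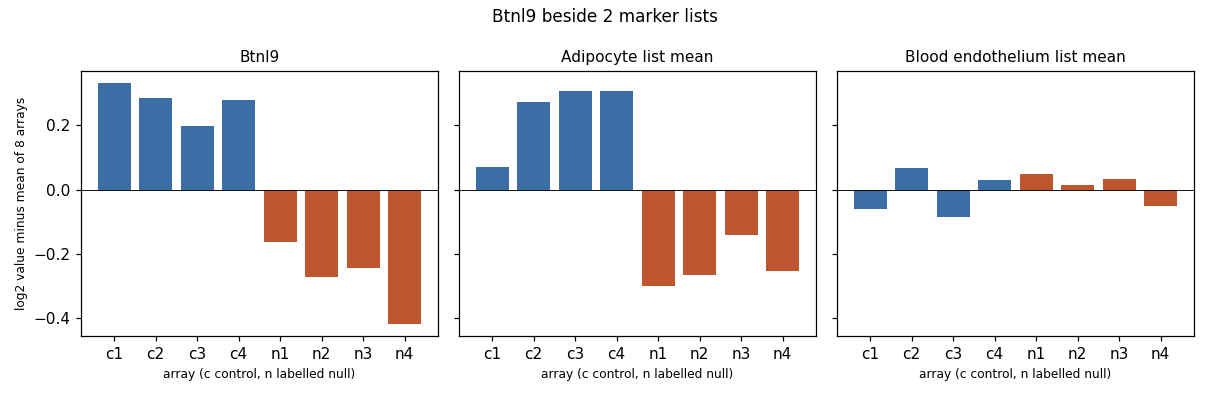
Btnl9 (left), the mean of 12 adipocyte genes (middle) and the mean of 14 blood endothelial genes (right) on each array, as log2 values minus the mean of all 8 arrays; c1 to c4 are control and n1 to n4 labelled-null arrays. Btnl9 and the adipocyte mean are above 0 on all control arrays and below 0 on all labelled-null arrays, and the endothelial mean takes both signs in each group.

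The genes beside Btnl9 on its chromosome did not share its separation. The 3 nearest tested genes on one side were Irgm1 (-0.20), an interferon-inducible GTPase, and the olfactory receptor genes Olfr1395 (0.00) and Olfr1394 (-0.02), and on the other side the zinc finger gene Zfp62 (0.02), the glycosyltransferase gene Mgat1 (-0.09) and the olfactory receptor gene Olfr1393 (-0.10). In each of the 6 the groups overlapped. The 5 tested genes whose values followed Btnl9 most closely over the 8 arrays were Cdca2 (Pearson r = 0.967), Txn2 (0.963), Zfp423 (0.961), Bmper (0.954) and Coasy (0.951). Bmper, a secreted BMP modulator, differed by -0.70 and passed the threshold, while Zfp423, a transcription factor of preadipocytes, differed by -0.15 and did not. These are the highest correlations among 15174 tested genes, over 8 arrays that share the group difference, and they are given as a description.

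The other 4 measured butyrophilin members differed by 0.03 to 0.11 in size, with overlapping groups. Btnl2, a T cell inhibitory relative encoded in the major histocompatibility complex, was the 1 of them past the brightness filter, at 6.34, 6.25, 6.22 and 6.27 on control arrays 1 to 4 and 6.27, 6.03, 6.25 and 6.36 on labelled-null arrays 1 to 4. The lowest and the highest of the 8 values both lay among the labelled-null arrays. Its difference was -0.04 (SE 0.072), with a brightness above 39.4% of all clusters. Btnl10, Btn1a1 and Btn2a2 were dim, brighter than 23.3%, 22.0% and 18.8% of all clusters and above the 30th percentile of their array on 0 of 8 arrays.

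Btnl10 ran from 5.16 to 5.45 on control and from 5.01 to 5.28 on labelled-null arrays. Btn1a1, the milk fat globule butyrophilin, ran from 5.07 to 5.25 and from 4.85 to 5.20. Btn2a2, a T cell inhibitory butyrophilin, ran from 4.67 to 4.94 and from 4.64 to 4.89. Their differences were -0.11, -0.04 and -0.03, and values this low on the array say little about whether the transcripts were present. A list of 6 genes drawn up around milk fat secretion, the process Btn1a1 is known for (Xdh, Plin2, Cidea, Mfge8, Muc1 and Adipor1), had 4 members below and 2 above control, with a median difference of -0.02. By limma 0 of the 6 passed the threshold and 2 had an unadjusted p under 0.05; Plin2, which coats lipid droplets, differed by -0.18 and Cidea, another lipid droplet protein, by 0.24.

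Skint3 and Skint9 were near the bottom of the scale on the same 2 arrays, 1 in each group. Skint3 read 6.97, 3.43, 6.82 and 6.72 on control arrays 1 to 4 and 3.53, 6.998, 6.78 and 8.23 on labelled-null arrays 1 to 4. Skint9 read 6.94, 2.88, 8.65 and 7.97 on control arrays 1 to 4 and 2.94, 7.72, 7.96 and 6.76 on labelled-null arrays 1 to 4. Control array 2 and labelled-null array 1 were thus low for both genes, and the other 6 arrays overlapped between the groups. The lowest of the other 6 arrays lay 3.19 above the higher of these 2 arrays for Skint3 and 3.82 above it for Skint9. On control array 2 Skint3 was brighter than 5.49% and Skint9 than 1.49% of that array's clusters, and on labelled-null array 1 than 6.08% and 1.93%, against 46.7% or more on the other 6 arrays for both. The low values sit near the floor of the arrays, so the gaps are no measure of a fold. On the other 6 arrays the genes did not rise and fall alike: Skint3 was highest on labelled-null array 4, where Skint9 was at its lowest of the 6, and Skint9 was highest on control array 3. The background of the mice was mixed and the labels give no genotype at the Skint genes, so a part of strain differences in these values was not tested.

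Few other rows showed this pattern. Of all 35556 clusters, 4 (0.0112%) read more than 1 lower on both arrays than on each of the other 6, and none read more than 1 higher on both. Of the 15174 genes tested, 3 did (0.0198%). Of the 4 clusters, 3 carried a Skint symbol (Skint9, Skint3 and Skint4) and the fourth, with a gap of 2.23, carried no symbol. At a gap of 0.5 there were 9 rows, the 4 with a symbol being Skint9, Skint3, Skint4 and Skint10, and 1 row was higher by that much. Choosing these 2 arrays from Skint3 and Skint9 fixes that those genes are among the rows; the pattern, and Skint4 and Skint10, were noticed in the same values and have no test. Xist, which is transcribed in female cells, was near background on these 2 arrays but also on control array 3 and labelled-null array 2, where Skint3 and Skint9 were not low.

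The low genes were neighbours in the Skint cluster. In the order of RefSeq assembly GRCm38.p6 the 11 Skint genes are Skint8, Skint7, Skint1, Skint4, Skint3, Skint9, Skint2, Skint10, Skint6, Skint5 and Skint11, of which 7 had a row. Skint4 read 4.43 and 4.29 on control array 2 and labelled-null array 1 respectively, with 5.85 to 6.43 elsewhere. Skint10 read 6.15 and 6.27 there and 7.01 to 8.30 elsewhere. For Skint2, which lies between Skint9 and Skint10, the same arrays were the lowest by a smaller gap, at 5.19 and 5.23 against 5.39 to 6.28.

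The outermost Skint genes with a row overlapped with the other arrays. Skint7 read 6.55 and 6.15 on these arrays, each the lowest of its group, and 6.41 to 7.25 on the others. Skint11 read 4.17 and 4.85 against 4.56 to 5.08 and was the lowest of its group on control array 2 alone. Outside the cluster, Slc5a9, a sugar transporter gene next to it, was lowest on the same arrays, at 7.58 and 7.53 against 7.86 to 8.53. The next tested genes, Spata6 and Bend5 on that side and Trabd2b, Foxd2 and Foxe3 on the other, overlapped. The probe sequences were not used here, so how far the probes of 1 Skint gene also bind the transcripts of another is not known.

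**Figure D3:**
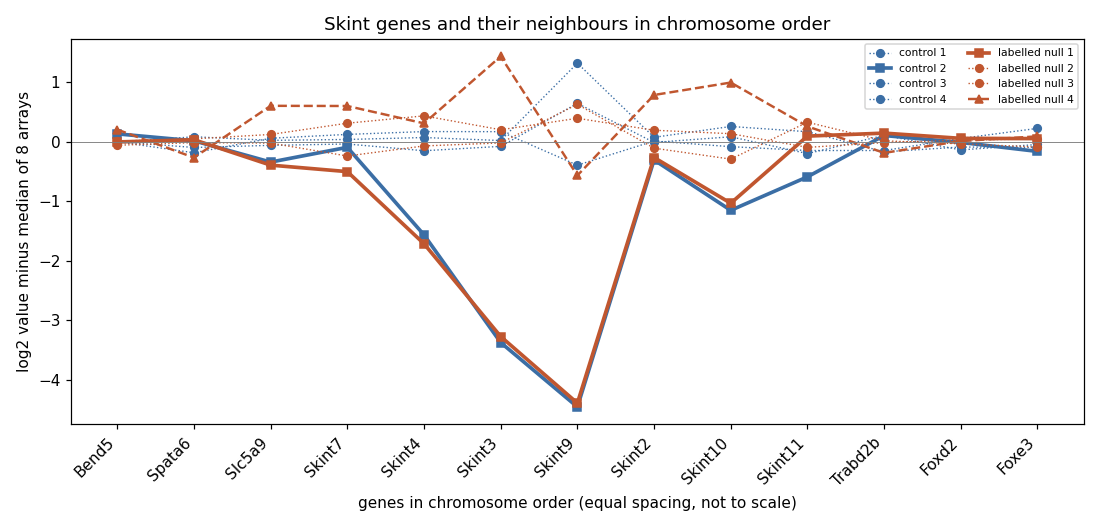
Log2 value minus the median of the 8 arrays (vertical axis) for 7 Skint genes and 3 tested genes on each side, in chromosome order with equal spacing; each line is an array. Control array 2 and labelled-null array 1 (thick lines with squares) dip over Skint4, Skint3 and Skint9 and again at Skint10, and labelled-null array 4 (dashed, triangles) is the highest for Skint3, Skint7 and Skint10 but not for Skint9.

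The low arrays, 1 in each group, left group differences of Skint3 and Skint9 with no settled direction. Skint3 averaged 5.98 ± 1.71 in control and 6.38 ± 2.01 on labelled-null arrays (SD, n = 4 each), a difference of 0.40 (SE 1.04), and Skint9 averaged 6.61 ± 2.59 and 6.35 ± 2.33, a difference of -0.26 (SE 1.37). Without control array 2 these became -0.45 and -1.51, and without labelled-null array 1 they became 1.35 and 0.87. Skint3 was also below 0 without labelled-null array 4 (-0.21), and Skint9 was above 0 without control array 3 (0.42) or 4 (0.19). Without both low arrays the differences were 0.50 and -0.37, and with control array 1 and labelled-null array 4 both omitted they were 0.11 and -0.29. With array weights, which down-weight variable arrays, Skint9 was at 0.30.

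**Figure D4:**
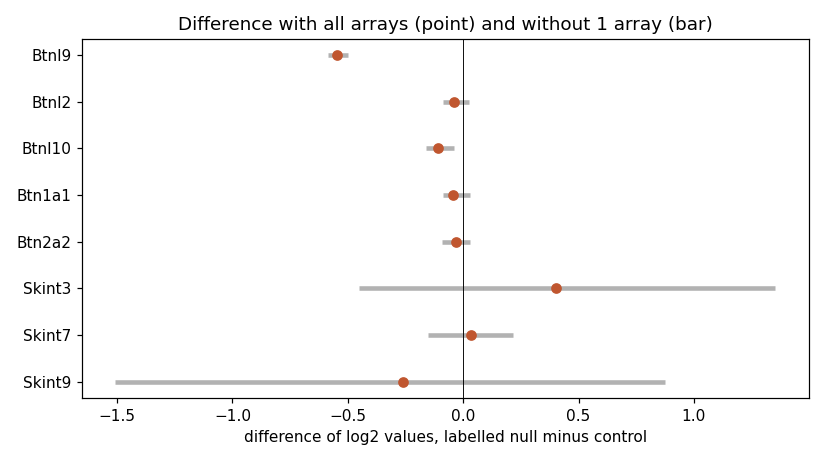
Difference of mean log2 values, labelled null minus control (horizontal axis), for the 8 measured members: points are values with all arrays, bars the range when each array is left out in turn. The bar of Btnl9 stays between -0.59 and -0.50, and those of Skint3 (-0.45 to 1.35) and Skint9 (-1.51 to 0.87) cross 0.

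Skint7 differed little on average but varied more among the labelled-null arrays. It read 6.77, 6.55, 6.69 and 6.61 on control arrays 1 to 4 and 6.15, 6.96, 6.41 and 7.25 on labelled-null arrays 1 to 4. The 4 control values all lay inside the range of the labelled-null values. The means were 6.66 ± 0.09 and 6.69 ± 0.50 (SD, n = 4 each), a difference of 0.04 (SE 0.21), and without labelled-null array 4 or 2 it was below 0 (-0.15 and -0.05). Its closest followers over 8 arrays were Atp6ap1 (Pearson r = 0.993), a proton pump accessory gene, the chemokine receptor gene Ccr4 (0.984), Glrx (0.981), a glutaredoxin gene, Slc44a2 (0.980) and Gtf2a1 (0.980), all with labelled-null array 4 highest and labelled-null array 1 lowest.

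Markers of the suprabasal epidermis, where keratinocytes differentiate, were also low on the 2 arrays low for Skint3 and Skint9. The mean of 16 tested suprabasal genes, such as Krt1, Krt10 and Ivl, relative to all 8 arrays, was -0.21 on control array 2, -0.19 on labelled-null array 1 and 0.42 on labelled-null array 4, and between -0.14 and 0.10 on the other 5. Without Krt77, a step added after the values were seen, these 3 became -0.16, -0.15 and 0.25. Skint3, Skint7, Skint10 and Skint2 were highest on labelled-null array 4, as was the list, while Skint9 and Skint4 were not. Ivl, the cornified envelope protein involucrin, read 10.85 and 10.92 on the arrays low for Skint3 and 11.14 to 11.82 on the others, a gap of 0.22. Krt77, a keratin of sweat ducts and suprabasal cells, reached 12.49 on labelled-null array 4, against 8.66 to 9.19 in the rest of its group and 8.44 to 10.67 in control, and it was not the lowest on either low array. The suprabasal list had 8 members below and 8 above control (median difference 0.01; by limma 0 past the threshold and 0 with an unadjusted p under 0.05). Krt10 was at 13.09 and 13.11 on the 2 low arrays and at 13.12 to 13.20 on the rest. The 8 tested basal epidermal genes had relative means between -0.07 and 0.06 on all arrays, lowest on labelled-null array 1. Among them, Krt14 was lowest on the 2 low arrays, at 11.80 and 11.79 against 11.90 to 12.05 on the rest. Krt15 was lowest there by a gap of 0.01, and Itgb4 was not. Skeletal muscle genes went the other way, at 0.12 on control array 2, 0.14 on labelled-null array 1 and -0.24 on labelled-null array 4, with 0.23 on labelled-null array 3. Myeloid and fibroblast genes were at their lowest on labelled-null array 4, at -0.20 and -0.10. The part of these markers in the Skint values was not tested.

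**Figure D5:**
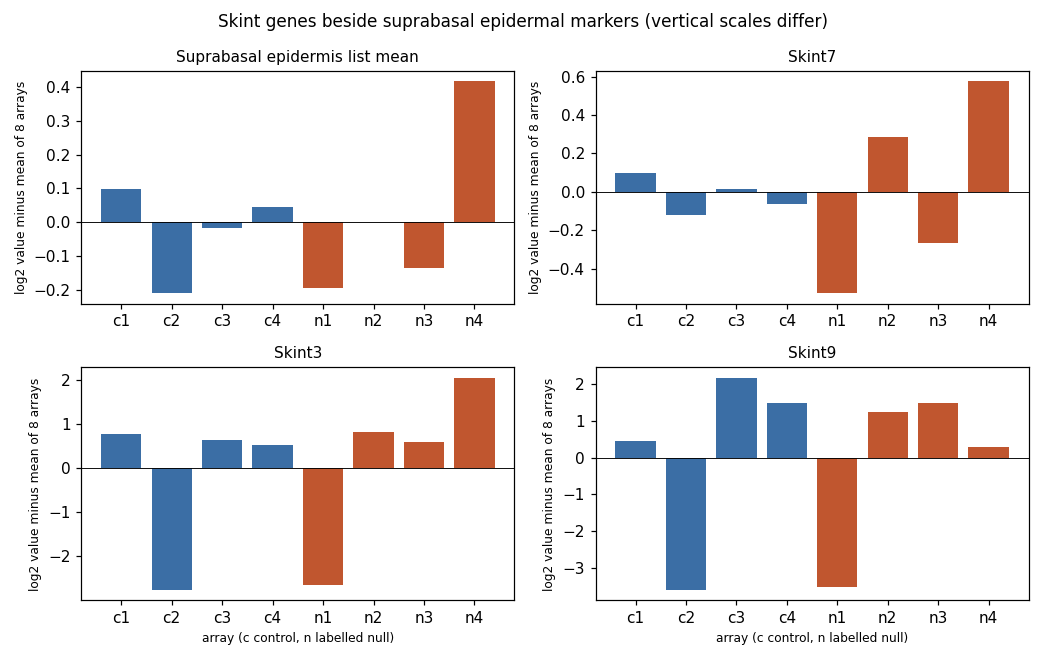
The mean of 16 suprabasal epidermal genes (top left), Skint7 (top right), Skint3 (bottom left) and Skint9 (bottom right) on each array, as log2 values minus the mean of all 8 arrays; c1 to c4 are control and n1 to n4 labelled-null arrays, and vertical scales differ. Arrays c2 and n1 are below 0 in the 4 panels, by about 0.2 for the list and by more than 2 for Skint3 and Skint9, and n4 is the highest for the list, Skint7 and Skint3.

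The remaining relatives did not separate the groups. Of 15 further genes of the family and its nearest relatives, 8 had a row and 5 of these were tested. The groups overlapped in all 8. Of the 5 tested, by limma 0 passed the threshold and 0 had an unadjusted p under 0.05. Of the 8, 7 lay above control and 1 below, with a median difference of 0.11. The largest were Skint11 (0.34, SE 0.15) and Skint2 (0.21), both dim and not tested, followed by Skint10 (0.18, SE 0.42), Skint4 (0.11, SE 0.51) and the pseudogene Btnl5-ps (0.10). With 1 array left out, Skint11 stayed above control, at 0.21 to 0.46. Without labelled-null array 4 Skint10 was at -0.17, Skint4 at -0.08 and Skint2 at -0.00, and without control array 2 Skint10 and Skint4 were at -0.13 and -0.29. Btnl5-ps had 3 rows, which differed by 0.10, -0.12 and 0.20 and so disagreed in sign. Btnl1, which pairs with Btnl6 in gut epithelium, differed by -0.09, Ermap, an erythroid membrane protein, by 0.04, and Mog, a myelin protein, by 0.01; the row shared by Btnl4 and Btnl6 is not named here.

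Genes listed for the T cells with which Skint genes are linked were dim or near control. Of 25 genes of epidermal gamma-delta T cells 18 had a row and 8 were tested, 3 below and 5 above control (median difference 0.01), and by limma 0 passed the threshold and 1 had an unadjusted p under 0.05. The gamma-delta receptor genes Trdc, Trdv4, Tcrg-C1, Tcrg-V5 and Tcrg-V6 were listed but had no row under their symbols. The values therefore do not show how many of these T cells were present. The T cell receptor subunit gene Cd3e ran from 6.24 to 6.57 on control and from 6.14 to 6.61 on labelled-null arrays. Cd3g, Cd3d, Itgae, Il2rb and Klrk1 were under the brightness filter, the last being brighter than 10.7% of all clusters. Largest in difference among the tested were Cd247 (0.13), a T cell receptor signalling chain, Thy1 (-0.10), which fibroblasts also carry, and Egr3 (-0.10), a transcription factor of T cell selection. The list mean ran from 7.42 to 7.48 in control and from 7.42 to 7.48 on labelled-null arrays, and on the arrays low for Skint3 and Skint9 it was 7.47 and 7.48.

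Genes through which keratinocytes and dermal cells support or receive signals from these T cells, and the B7 relatives of the butyrophilins, were near control. Of 10 tested niche genes 7 lay below and 3 above (median difference -0.02), led by the growth factor genes Fgf10 (-0.16), Fgf7 (0.14) and Igf1 (-0.12), and by limma 0 passed and 1 had an unadjusted p under 0.05. Of 10 tested B7 ligands and receptors 5 lay below and 5 above (median difference -0.02), led by the costimulatory ligand Icosl (0.12), the receptor Pdcd1 (0.09) and Cd276 (-0.07), and by limma 0 passed and 0 had an unadjusted p under 0.05. Of the other cell type lists, Langerhans and myeloid, dermal fibroblast, skeletal muscle and basal epidermal genes had median differences of -0.02, -0.03, -0.03 and -0.02, with H2-Ab1 (-0.19), Dpt (-0.09), Myh3 (0.10) and Itgb4 (-0.09) the largest in each. The 4 tested erythroid genes had a median difference of 0.17, led by Car1 (0.26). Car1 lay close to the brightness filter, at 5.54 to 5.65 on control and 5.79 to 5.94 on labelled-null arrays. It exceeded the filter on the 4 labelled-null arrays and on no control array, so its entry into the test depended on the group difference. By limma 0 genes of these 5 lists passed the threshold, and an unadjusted p under 0.05 was found in 1, the erythroid gene Car1. Because of how Car1 entered the test, nothing is read from that p.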

How the data were processed

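RNA of full-thickness skin was amplified from 100 ng of total RNA, and 5.5 μg of labelled cDNA was hybridised to 1 array per sample, per the labels' protocols. The submitters' processing notes name RMA and Affymetrix Expression Console for the deposited log2 values, with software versions and annotation not given in the sources here. RMA quantile-normalizes arrays, so a shift of all genes together cannot be seen.

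Of 35556 transcript clusters, 21789 had exactly 1 gene symbol in the platform annotation, updated through a RefSeq gene table (GRCm38.p6) for 21698. A gene was tested when its brightest cluster exceeded the 30th percentile of the array in 4 or more of the 8. Labelled null minus control was fitted by limma 3.58.1 (R 4.3.3) without covariates, two-sided, with Benjamini-Hochberg adjustment at 0.05 over 15174 genes. The limma step was tested on simulated data. Dim members kept their values, with SE from a fit without the filter. The members and lists were chosen with earlier results of these data known. Named were all members and relatives with a row, up to 3 tested genes per list with the largest difference and any that passed, the 5 genes most correlated with Btnl9 and with the brightest Skint member (Skint7), and 3 genes beside Btnl9; genes beside the Skint cluster, and other marker genes whose values are given, were chosen after the values were seen. Same-numbered arrays were treated as unpaired, and the labels do not say whether they shared a litter or batch. Alternatives were other filters, scalings, priors, weights, thresholds, summaries per gene, covariates, a replicate block, and arrays left out.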

Additional observations from a re-analysis of the deposited data

Results flagged for a closer look

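Among the genes checked, 12 of 150 groups of 4 arrays had 1 array far from the other 3, where chance gives about 8, or 1 in 20. Checked were the members and relatives, the genes of each list with the largest difference or past the threshold, and the genes most correlated with Btnl9 and Skint7. The genes beside Btnl9 and beside the Skint cluster were also checked. Other marker genes named above, such as Pparg, Xist, Krt10 and Adipoq, were not. Of the members, Skint3 read 3.43 on control array 2 against 6.72 to 6.97 on the other controls, Btnl10 read 5.45 on control array 1 against 5.16 to 5.18, and Btn1a1 read 5.25 on that array against 5.07. Of the relatives, Btnl1 read 5.39 on control array 1 against 5.17, and Mog read 5.85 on labelled-null array 3 against 6.05. Btnl10, Btn1a1 and Btnl1 are all dim and high on the same control array.

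Of the marker and neighbouring genes, Krt77 read 12.49 on labelled-null array 4 against 8.66 to 9.19, Krt14 read 11.80 on control array 2 against 11.90 to 11.92, and Vwf, a protein of endothelial cells, read 8.0 on control array 2 against 7.83 to 7.86. Aif1 read 5.61 on control array 3 against 5.75 to 5.76, Dpt read 11.85 on control array 4 against 11.76 to 11.77, Txn2 read 9.95 on labelled-null array 1 against 9.94, and Bend5 read 7.64 on control array 2 against 7.49 to 7.51.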

How the results depend on the processing

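Btnl9 stayed lower in all alternatives run, at -0.59 to -0.48, and the gaps of Skint3 (3.19 to 3.24) and Skint9 (3.82 to 3.85) held after centring or cyclic loess. The count of members past the threshold was 1 in the design as written and fell to 0 with the replicate block, with every cluster tested on its own, at an adjusted p of 0.01, at a 1.5-fold minimum and when control array 2 and labelled-null array 1 were both omitted; leaving out 1 array gave 0 to 1. The count over all genes, 18, became 1 with the replicate block, 11 with Xist as a covariate, 1 with every cluster on its own, 3 at an adjusted p of 0.01 and 0 without control array 2 and labelled-null array 1 (459 genes with an unadjusted p under 0.05 by limma), and 3 to 15 without 1 array; fits with fewer arrays have fewer degrees of freedom, and the cause of the other changes was not tested. As to pairing, deviations of same-numbered arrays correlated at r = -0.31, 0.20, 0.05 and -0.03 over the tested genes, and no control array correlated best with its own number. The omission of these 2 arrays and the lower gap of 0.5, which gave 9 rows in place of 4, were chosen after seeing the data. Dim members sit where array signal carries little information.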
